A study of Mus musculus with 9 samples.

Results

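Sox10 knockout clone 2 was compared with Sox10 knockout clone 1, gene by gene, in BG2 cells, a mouse mammary tumour cell line. The 6 libraries of the clones were taken by their labels, 3 per clone, out of 9 libraries in the series; the other 3 come from the wild-type BG2 cells, sequenced as a bulk population and named the control here. BG2 cells came from an endpoint tumour of the MMTV-NeuIresCre strain, in which the mouse mammary tumour virus promoter drives the Neu oncogene (a form of Erbb2) and Cre recombinase from 1 transcript, so all 3 groups carry this transgene. Both clones grew out of a CRISPR-edited pool made with guides against exon 3 of Sox10, and the library names of both hold sgRNA2. The library names of the control hold NTC, whose meaning the labels do not give. Each knockout line is 1 clone and its 3 libraries are technical replicates. Every test below therefore measures the spread between libraries and not between cultures or independent clones, and what belongs to the knockout and what to the history of the single cell that founded a clone cannot be told apart.

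Sox10 is a transcription factor of the neural crest, and in the mammary gland it is known in progenitor and basal cells. Epithelial-mesenchymal transition is a programme in which cells lose epithelial junctions and keratins and gain vimentin, fibronectin and other matrix genes under factors such as Zeb1, Zeb2, Snai1, Twist1 and Prrx1. It is known to have many forms, and cells at different points of it can keep different sets of epithelial genes. A clone carries forward the genome and the stable on and off states of the cell it came from.

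Sox10 transcripts lay near the counting floor in both clones. Levels are TMM-scaled CPM (counts divided by library size and a TMM factor) and are given as the mean ± SD over n = 3 libraries. Sox10 was 284 CPM in the control. It was 0, 0.0787 and 0 CPM in the clone 1 libraries and 0, 0.0265 and 0.0255 CPM in the clone 2 libraries, from 6 and 4 counts in all. The 6 libraries overlapped, and Sox10 did not differ between the clones (adjusted p = 0.684, edgeR). In bulk RNA, here and below, fewer cells that express a gene and less RNA per cell cannot be told apart. Total counts per library were 65805296 to 83282841, and 3 counts over a clone's libraries corresponded to 0.0142 CPM in clone 1 against 0.0127 CPM in clone 2. The clones parted from each other on the second principal component (15.8% of the variance), after a first (81.9%) that set the control apart; on the third (1.36%) the replicate 1 libraries of all groups lay away from replicates 2 and 3.

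Most expressed genes differed between the clones by a small amount, and a smaller share by more than 2-fold. Of 13928 genes with enough counts to test, 8018 (57.6%) passed at an adjusted p under 0.05 in edgeR's quasi-likelihood test, 4191 of them (30.1%) higher in clone 2 and 3827 (27.5%) higher in clone 1. The median size of a difference was 0.35 on the log2 scale, and the libraries of the clones did not overlap for 9040 genes (64.9%). Technical replicates let such small differences pass, so gene groups below are counted by a test against a difference of 2-fold (edgeR's glmTreat, adjusted p under 0.05). By that test 1186 genes (8.52%) differed, 651 (4.67%) over 2-fold higher in clone 2 and 535 (3.84%) over 2-fold higher in clone 1. Among them 824 were 4-fold or more apart and 345 were 16-fold or more apart. Many of these genes were scarce: 525 calls were left where only genes with at least 5 CPM in a clone were tested, 292 of them higher in clone 2 and 233 higher in clone 1.

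**Figure D1:**
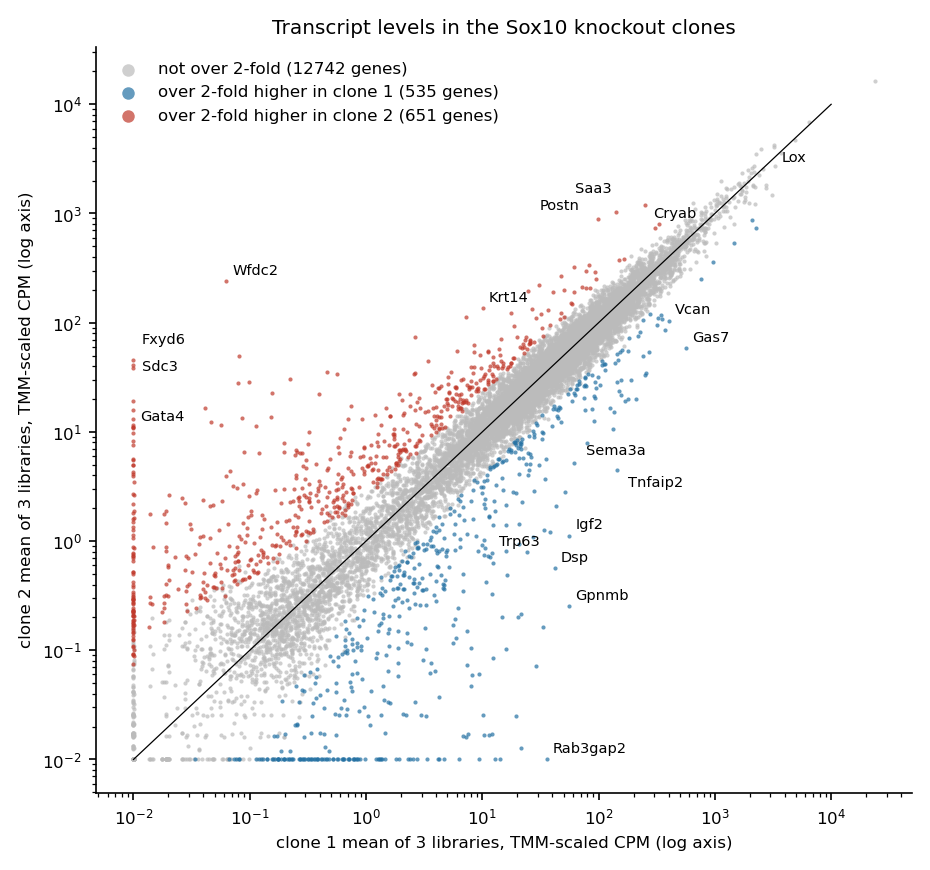
Mean TMM-scaled CPM of each of the 13928 tested genes in clone 1 (x axis) and clone 2 (y axis), both on log axes, with means under 0.01 CPM drawn at 0.01. Red points are the 651 genes over 2-fold higher in clone 2 and blue points the 535 over 2-fold higher in clone 1; the columns of points along the left and lower edges are genes at or near 0 in 1 clone, such as Fxyd6 and Rab3gap2.

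A set of genes was expressed in 1 clone and missing from the other. With at most 3 counts over the 3 libraries of one clone and a mean of at least 5 CPM in the other, 15 genes were detected only in clone 2 and 6 only in clone 1. Promoter sequences are shown for 4 of these genes, the 2 most abundant in clone 2 and 2 of the 6 of clone 1. They are examples of the DNA at an annotated start of genes expressed in 1 clone and not in the other. They run from 250 bases before to 50 after the RefSeq start of the gene on its own strand, in build GRCm38.p6, and CG dinucleotides, the sites of DNA methylation, are in capitals. The Rab3gap2 promoter lies at chr1:185203918-185204217 on the plus strand, that of Sdk1 at chr5:141241284-141241583 (plus), that of Fxyd6 at chr9:45369935-45370234 (plus) and that of Sdc3 at chr4:130792287-130792586 (plus). The start used in these cells was not measured, and the Fxyd6 stretch lies inside the gene span given below.
Rab3gap2: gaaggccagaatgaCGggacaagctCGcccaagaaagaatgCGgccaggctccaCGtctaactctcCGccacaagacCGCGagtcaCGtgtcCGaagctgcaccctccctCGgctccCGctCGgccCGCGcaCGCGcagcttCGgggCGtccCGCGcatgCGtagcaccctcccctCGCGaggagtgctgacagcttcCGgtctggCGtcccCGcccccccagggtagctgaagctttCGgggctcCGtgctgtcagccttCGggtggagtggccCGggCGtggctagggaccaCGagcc
Sdk1: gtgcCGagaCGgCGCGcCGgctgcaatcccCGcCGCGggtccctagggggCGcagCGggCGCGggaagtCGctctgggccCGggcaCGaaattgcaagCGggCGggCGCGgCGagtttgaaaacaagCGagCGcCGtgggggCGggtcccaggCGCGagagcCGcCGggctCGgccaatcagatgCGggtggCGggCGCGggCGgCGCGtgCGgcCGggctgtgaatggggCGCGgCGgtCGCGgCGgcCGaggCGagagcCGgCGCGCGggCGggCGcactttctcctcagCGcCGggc
Fxyd6: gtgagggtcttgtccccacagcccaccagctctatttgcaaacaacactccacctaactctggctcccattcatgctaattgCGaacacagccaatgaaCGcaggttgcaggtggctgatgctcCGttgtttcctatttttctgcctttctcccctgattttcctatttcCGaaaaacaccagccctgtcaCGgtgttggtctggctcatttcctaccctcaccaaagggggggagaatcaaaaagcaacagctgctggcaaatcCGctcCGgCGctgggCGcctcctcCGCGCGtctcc
Sdc3: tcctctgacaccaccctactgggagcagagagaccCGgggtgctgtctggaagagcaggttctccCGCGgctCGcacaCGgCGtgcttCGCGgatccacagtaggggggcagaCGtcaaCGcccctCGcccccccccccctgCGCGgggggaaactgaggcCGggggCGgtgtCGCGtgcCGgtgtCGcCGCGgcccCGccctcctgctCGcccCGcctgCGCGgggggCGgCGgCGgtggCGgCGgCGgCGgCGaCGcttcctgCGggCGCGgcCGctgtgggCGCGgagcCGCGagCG
The Rab3gap2 promoter holds 32 CG dinucleotides, a number reached by 9.52% of all promoters in the table. That of Sdk1 holds 54 (reached by 0.347%), that of Fxyd6 holds 12 (39.6%) and that of Sdc3 holds 44 (2.25%). Of the 21 genes, 18 had a promoter in the table, with a median of 21 CG dinucleotides, against 20 over the promoters of 10997 tested genes. The median over all promoters in the table was 7, so the shares above are taken over a set with fewer CG dinucleotides than tested genes have. DNA methylation was not measured, and these counts describe sequence only.

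Fxyd6, a regulator of the sodium-potassium pump (gene at chr9:45369470-45396159, GRCm38), had 44.1, 47.7 and 43.8 CPM in the clone 2 libraries and 0 counts in all 3 of clone 1, at least 3190-fold higher in clone 2 when the floor of 3 counts stands for clone 1. The control had 0.687 CPM. Sdc3, a heparan sulfate proteoglycan of the cell surface (gene at chr4:130792537-130826318), had 41.0, 39.5 and 43.3 CPM in clone 2 and 0 counts in clone 1, at least 2916-fold higher, with 4.50 CPM in the control. Gpc4, another heparan sulfate proteoglycan, stood at 38.6 ± 1.34 CPM in clone 2 against 1 count in clone 1, a ratio of 8179 with a 95% counting interval of 1468 to 323090. Gata4, a transcription factor of heart and endoderm, stood at 11.1 ± 0.615 CPM in clone 2 against 0 counts, at least 782-fold higher, with 3.15 CPM in the control. Cdcp1, a surface protein that binds Src kinases, was 175 CPM in the control, against 7.63 ± 0.243 CPM in clone 2 and 0 counts in clone 1. The other genes detected only in clone 2 were Bckdhb, a subunit of the branched-chain keto acid dehydrogenase, Cers6, a ceramide synthase, Irak3, a brake on Toll-like receptor signalling, Abcg2, a drug efflux pump, Pla2r1, Tdrp, Slc35g1, Hebp1, Dennd2a and Syt17, at 5.54 to 19.4 CPM in clone 2.

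Rab3gap2, a subunit of a regulator of Rab GTPases (gene at chr1:185204088-185286756, GRCm38), had 33.0, 36.7 and 37.9 CPM in the clone 1 libraries and 0, 0.0265 and 0 CPM in those of clone 2, from 2 counts in all. Clone 1 was 4261-fold higher (95% counting interval 1179 to 35191), and the control, at 55.0 CPM, expressed the gene too. Rgs19, an inhibitor of G protein signalling, was 21.6 ± 0.288 CPM in clone 1 against 3 counts in clone 2 and 58.1 CPM in the control. Gcnt4, a glycosyltransferase, was 6.30 ± 0.438 CPM in clone 1 against 0 counts in clone 2 and 19.4 CPM in the control. Sdk1 and Pcdh9, adhesion proteins of neurons, and Epdr1 were present in clone 1 alone, at 12.95, 14.1 and 9.38 CPM, and scarcely or not detected in the control (0, 0.0806 and 0.0813 CPM). Of the 42 nearest tested genes on either side of the 21, with at least 5 CPM in a clone, 38 lay within 2-fold between the clones (90.5%, against 92% of all tested genes of that abundance). Those outside include Ptpru, a receptor phosphatase next to Sdc3, at 9.42 CPM in clone 1 against 0.0600 CPM in clone 2, Fam234b next to Hebp1, at 8.80 CPM and 23.7 CPM, and Mkrn1 next to Dennd2a, at 20.9 CPM and 43.0 CPM. Rab3gap2 overlaps Iars2 at one end by a short stretch, and Iars2 stood at 108 CPM in clone 1 against 140.2 CPM in clone 2.

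Among genes with at least 200 CPM in the higher clone, the 8 with the largest differences toward clone 2 were Postn, Saa3, Nos2, Cryab, Tnnt2, Myom2, Wfdc2 and Col8a1. Postn encodes periostin, a matricellular protein of mesenchymal tissue. It had 108, 104 and 85.0 CPM in the clone 1 libraries and 1026, 795 and 863 CPM in those of clone 2, and no library of one clone reached those of the other. The log2 difference was 3.17 ± 0.11 (SE; adjusted p for over 2-fold = 1.51e-08, edgeR). Saa3, an acute-phase serum amyloid, was 142 ± 11.2 CPM in clone 1 against 1032 ± 47.4 CPM in clone 2 (2.86 ± 0.07). Nos2, which makes nitric oxide in inflamed tissue, was 82.2 ± 2.56 CPM and 339 ± 13.3 CPM (2.04 ± 0.11). The control had 6.97 CPM of Postn, 1.37 CPM of Saa3 and 0.220 CPM of Nos2. Cryab, a small heat shock protein of lens and muscle, was 249.9 ± 9.45 CPM in clone 1 against 1192 ± 55.5 CPM in clone 2. Tnnt2, cardiac troponin T, was 47.8 ± 2.48 CPM and 267 ± 14.7 CPM, and Myom2, a protein of the sarcomere M band, was 30.8 ± 0.139 CPM and 220.5 ± 3.30 CPM. Wfdc2, a secreted protease inhibitor of epithelia, was 239 ± 5.92 CPM in clone 2 against 0.0626 ± 0.0262 CPM in clone 1 and 643 CPM in the control. Col8a1, a short-chain collagen, is given with the collagens.

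The 8 with the largest differences toward clone 1 at that abundance began with Gas7. Gas7, an actin-binding protein, had 547, 578 and 579 CPM in clone 1 and 60.3, 58.8 and 56.7 CPM in clone 2, without overlap (-3.28 ± 0.05; adjusted p for over 2-fold = 2.05e-11, edgeR), and the control, at 58.1 CPM, lay beside clone 2. Tnfrsf21, death receptor 6, was 209 ± 9.38 CPM in clone 1 against 19.99 ± 0.655 CPM in clone 2, with the control between them at 58.5 CPM. Scara5, a ferritin receptor, was 254 ± 2.65 CPM and 34.3 ± 0.987 CPM. Emb, a membrane protein that partners lactate transporters, was 271 ± 11.4 CPM and 54.3 ± 2.79 CPM, and Ly6c1, a surface antigen, was 371 ± 2.45 CPM and 86.1 ± 3.999 CPM. Ly6c1, like H2-T22, Oas1a, Saa1 and Gstm1 below, has near-identical relatives among which reads can be split, so its value is uncertain as to the gene. Dmxl1, a regulator of the vacuolar proton pump, Vcan, the proteoglycan versican, and Cdh13, an anchored cadherin, were the other 3. Among genes of at least 20 CPM, Gpnmb, a glycoprotein of melanosomes and macrophages, stood at 56.1 ± 5.03 CPM in clone 1 against 0.252 ± 0.0582 CPM in clone 2. Igf2, a growth factor that is imprinted in most tissues, stood at 56.1 ± 2.45 CPM and 1.12 ± 0.225 CPM. Both were near 0 in the control, at 0.0255 and 0.742 CPM. Tnfaip2, a TNF-induced gene, was 145 ± 7.01 CPM in clone 1 against 4.46 ± 0.316 CPM in clone 2, with 166 CPM in the control.

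The rest of the 10 genes of at least 20 CPM with the largest differences in each direction were of many kinds. On the side of clone 2, Lpl, lipoprotein lipase, was 28.3 ± 2.87 CPM against 0.0799 ± 0.0819 CPM, and Alpl, the alkaline phosphatase of bone, 28.5 ± 2.35 CPM against 0.0977 ± 0.131 CPM. Fads1, a fatty acid desaturase, was 35.6 ± 2.12 CPM against 0.460 ± 0.1995 CPM and 128 CPM in the control. Ces2g, a carboxylesterase, was 49.3 ± 1.74 CPM against 0.0813 ± 0.0253 CPM, and Timp4, an inhibitor of matrix metalloproteinases, 22.7 ± 0.823 CPM against 0.155 ± 0.105 CPM. Vmn2r79 belongs to a large family of near-identical vomeronasal receptor genes between which reads can be split, so its 30.2 ± 6.62 CPM in clone 2 against 0.222 ± 0.137 CPM is uncertain as to the gene. On the side of clone 1, Abcc9, a subunit of a potassium channel, was 28.9 ± 1.23 CPM against 0.0711 ± 0.0229 CPM. Syk, a tyrosine kinase of immune and some epithelial cells, was 21.7 ± 2.58 CPM against 0.213 ± 0.0807 CPM, Fat2, an atypical cadherin, 20.4 ± 1.20 CPM against 0.201 ± 0.0806 CPM, and Ccdc3, a secreted protein, 33.2 ± 2.12 CPM against 0.162 ± 0.0662 CPM.

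**Figure D2:**
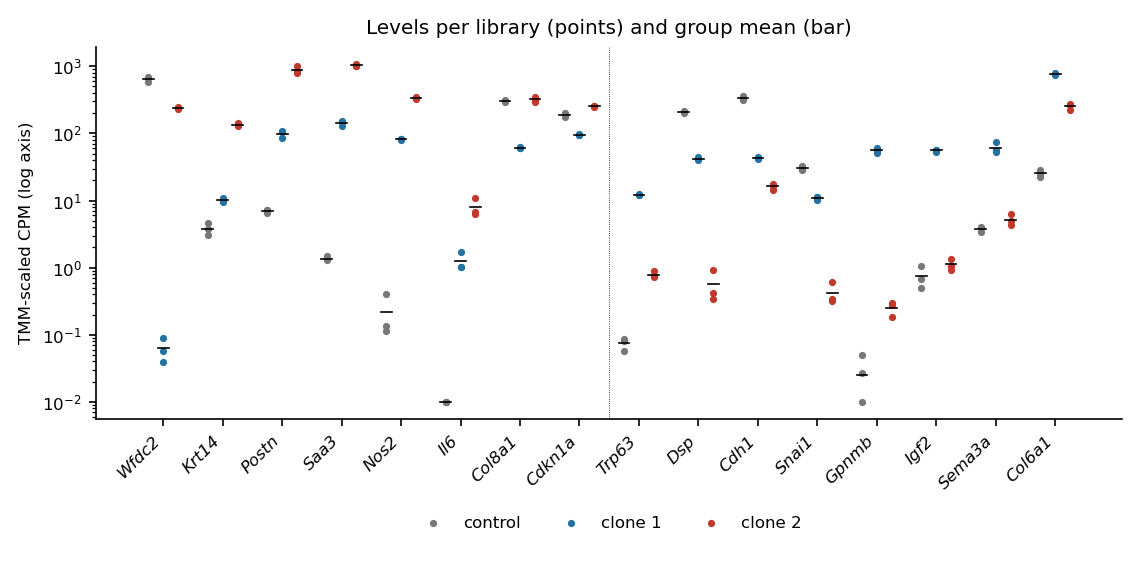
TMM-scaled CPM (log axis) of 16 genes in each of the 9 libraries, with control points in grey, clone 1 in blue and clone 2 in red; bars are group means, and values under 0.01 CPM are drawn at 0.01. For the 8 genes left of the dotted line all clone 2 points lie above those of clone 1, and for the 8 on the right they lie below; Postn, Saa3 and Nos2 are low in the control, while Dsp, Cdh1 and Snai1 are highest there.

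The transcription factors of epithelial-mesenchymal transition were mostly lower in clone 2. Of 17 listed, 12 were tested, and 3 were over 2-fold higher in clone 1 and 1 in clone 2 (33.3% in all, against 8.52% of all tested genes). At an adjusted p under 0.05, 9 were higher in clone 1 and 1 in clone 2, against 27.5% and 30.1% of all tested genes. The median log2 difference was -0.44 against 0.0034 over all tested genes above the floor of 3 counts. Snai1, a repressor of Cdh1, had 10.02, 11.1 and 11.2 CPM in the clone 1 libraries and 0.612, 0.344 and 0.319 CPM in those of clone 2, which lay far below clone 1 without overlap (-4.65 ± 0.17; adjusted p for over 2-fold = 1.51e-08, edgeR). The control, at 30.4 CPM, was above both. Sox4 fell in the same order, 143 CPM in the control, 76.9 ± 4.17 CPM in clone 1 against 15.8 ± 1.04 CPM in clone 2. Prrx1 ran the other way, at 13.9 ± 1.74 CPM in clone 1 against 57.5 ± 9.23 CPM in clone 2 (2.05 ± 0.15), and the control had 1.36 CPM. Prrx2, a close relative, was scarce and over 2-fold higher in clone 1, at 0.548 ± 0.155 CPM against 0.0504 ± 0.0252 CPM. Zeb1 was 112 ± 3.19 CPM in clone 1 against 73.8 ± 5.90 CPM in clone 2, Zeb2 75.7 ± 8.27 CPM and 53.3 ± 9.51 CPM, and Twist1 32.6 ± 0.237 CPM and 25.2 ± 2.67 CPM; these differences passed against 0 and were under 2-fold. Snai2, at 8.63 ± 0.697 CPM and 6.87 ± 1.31 CPM, overlapped and did not pass (adjusted p = 0.0729, edgeR), but passed with the replicate number as a block (-0.34, adjusted p = 0.00801, edgeR) and without clone 2 replicate 1 (-0.49, adjusted p = 0.00914). Twist2 had 8 counts in clone 1 and 0 in clone 2 and was too low to test.

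Mesenchymal surface and cytoskeleton genes were high in both clones. Vim, vimentin, was 3283 ± 171 CPM in clone 1 against 2750.4 ± 65.4 CPM in clone 2, with 906 CPM in the control. Fn1, fibronectin, had 2862, 3308 and 3208 CPM in clone 1 and 1245, 1539.5 and 1667 CPM in clone 2. The clones did not overlap, and the difference of -1.07 ± 0.13 on the log2 scale did not pass as over 2-fold (adjusted p = 0.836, edgeR). Lox, lysyl oxidase, which cross-links collagen, was 3199 ± 197 CPM and 4234 ± 380.1 CPM against 12.1 CPM in the control. Cdh2, N-cadherin, was 224 ± 4.52 CPM and 349 ± 20.9 CPM. Of 16 tested genes of this list, 2 were over 2-fold higher in clone 2, Mcam, an adhesion molecule of vessels and melanoma (18.8 ± 1.70 CPM against 2.72 ± 0.176 CPM), and Des, the muscle intermediate filament desmin (1.60 ± 0.263 CPM against 0.132 ± 0.0660 CPM), and none in clone 1 (12.5% in all, against 8.52% of all tested genes). Against 0, 8 passed in clone 2 and 6 in clone 1, where 30.1% and 27.5% of all tested genes did. Smooth muscle and contractile genes passed in 1 direction: of 15 tested, 11 were higher in clone 2 at an adjusted p under 0.05 and 0 in clone 1 (against 30.1% and 27.5% of all tested genes), with a median of 0.39. Des alone of these 15 was over 2-fold. The smooth muscle actins Actg2 and Acta2, counted with the basal genes below, were over 2-fold higher in clone 2 as well. Tpm1, a tropomyosin, was 335 ± 1.79 CPM in clone 1 against 599 ± 21.1 CPM in clone 2, close to the 592 CPM of the control.

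The summed level of epithelial markers lay below the control in both clones, and single epithelial genes differed between the clones in both directions. The labels call the cells mammary epithelial; the summed level of 10 epithelial markers ranged from 1119 to 1273 CPM in clone 1, from 1498 to 1692 CPM in clone 2 and from 9037 to 10684 CPM in the control. Epcam, which defines epithelium, was 659.5 CPM in the control against 7 counts in clone 1 and 0 in clone 2, and Krt19 was at or near 0 in all groups. Cdh1, E-cadherin, had 41.1, 44.7 and 43.4 CPM in clone 1 and 14.5, 17.4 and 16.7 CPM in clone 2, lower in each clone 2 library (-1.41 ± 0.08; adjusted p for over 2-fold = 0.000436, edgeR), with 341 CPM in the control. Dsp, desmoplakin, which anchors keratin filaments at desmosomes, was 41.9 ± 1.85 CPM in clone 1 against 0.563 ± 0.315 CPM in clone 2 (-6.19 ± 0.20). The 3 members over 2-fold higher in clone 2 were scarce: Tjp3, of tight junctions, was 0.372 ± 0.107 CPM in clone 1 against 2.64 ± 0.267 CPM in clone 2, Ocln, occludin, had 6 counts in clone 1 and 0.728 ± 0.0709 CPM in clone 2, and Ovol2, an epithelial transcription factor, 0.0942 ± 0.0434 CPM and 1.32 ± 0.166 CPM. In all, 33 of 35 epithelial junction genes were tested and 3 were over 2-fold higher in each clone (18.2% in all, against 8.52% of all tested genes), the Epcam call among them resting on those 7 counts. At an adjusted p under 0.05, 10 were higher in clone 2 and 8 in clone 1 (against 30.1% and 27.5% of all tested genes), and the median was 0.12 over the 24 members above the floor.

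Keratins and lineage factors differed in both directions. Krt14, the basal keratin, had 9.45, 9.79 and 10.9 CPM in clone 1 and 130.4, 142 and 133 CPM in clone 2, so that every clone 2 library was above every other (3.75 ± 0.12; adjusted p for over 2-fold = 6.23e-09, edgeR). Trp63, the p63 factor that marks basal epithelium, had 12.7, 11.95 and 11.9 CPM in clone 1 and 0.900, 0.741 and 0.715 CPM in clone 2, the opposite order (-3.95 ± 0.13; adjusted p for over 2-fold = 7.35e-09, edgeR). Actg2, smooth muscle gamma-actin, was 0.120 ± 0.0779 CPM in clone 1 against 6.43 ± 0.186 CPM in clone 2, and Acta2, smooth muscle alpha-actin, 0.562 ± 0.0110 CPM and 2.44 ± 0.383 CPM. Of 17 tested basal and myoepithelial genes, 5 were over 2-fold higher in clone 2 and 2 in clone 1 (41.2% in all, against 8.52% of all tested genes). Among luminal genes, 2 of 16 were over 2-fold higher in each clone (25% in all). Krt7 was 0.489 ± 0.0639 CPM and 5.68 ± 0.526 CPM against 3786 CPM in the control, and Elf3, an epithelial transcription factor, 0.0672 ± 0.0446 CPM and 4.34 ± 0.520 CPM, both higher in clone 2. Ehf, from the same family, had 155 ± 17.6 CPM in clone 1 against 21.9 ± 4.42 CPM in clone 2. Krt8, at 666 ± 39.6 CPM and 787 ± 54.0 CPM, and Krt18, at 480.5 ± 35.4 CPM and 641 ± 37.3 CPM, were slightly higher in clone 2, and the Krt8 call was lost without clone 1 replicate 1 (0.20) or clone 2 replicate 2 (0.16). Gata3 stood at 86.2 ± 2.32 CPM and 85.2 ± 1.09 CPM and did not differ (adjusted p = 0.823, edgeR), and Sox9 was 154 ± 11.5 CPM and 129.8 ± 3.96 CPM. Of 8 tested squamous genes 1 was over 2-fold higher in each clone (25% in all), Cnfn in clone 2 and Klk10 in clone 1.

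Collagen genes differed between the clones in both directions. Of 26 tested collagen chains, 9 differed by over 2-fold (34.6% against 8.52% of all tested genes), 3 higher in clone 2 and 6 higher in clone 1. Collagen VI, a beaded-filament collagen built of 3 different chains, was split: Col6a1 had 732, 763 and 786 CPM in clone 1 and 221, 266 and 270.0 CPM in clone 2. Col6a2 was 353 ± 15.3 CPM and 108 ± 12.6 CPM, while Col6a3 was 2.04 ± 0.264 CPM and 19.8 ± 3.92 CPM. The first 2 chains were thus over 2-fold higher in clone 1 and the third over 2-fold higher in clone 2, with no overlap for any of them. Col11a1, a fibrillar collagen of cartilage, was 50.03 ± 4.82 CPM and 200.4 ± 9.42 CPM, and Col8a1 61.1 ± 1.09 CPM and 321 ± 23.2 CPM against 304 CPM in the control. Col5a2 was 4.91 ± 0.507 CPM in clone 1 against 0.737 ± 0.174 CPM in clone 2, and Col3a1 1.04 ± 0.182 CPM against 6 counts. Basement membrane genes leaned to clone 2. Of 12 tested laminin and related genes 6 passed against 0 in clone 2 and 0 in clone 1 (against 30.1% and 27.5% of all tested genes), with a median of 0.31. Lamb3, at 8.36 ± 0.138 CPM and 35.0 ± 2.97 CPM, and Lamc3 were over 2-fold higher (16.7%, against 8.52% of all tested genes). The Lamc3 call was lost without replicate 1 of every group (1.39). The basement membrane collagens Col4a1 and Col4a2 were also higher in clone 2, at 525 ± 40.6 CPM against 311 ± 7.83 CPM and 1249.6 ± 141 CPM against 654 ± 25.6 CPM, each by less than 2-fold. Both lie within the first 20 Mb of chromosome 8. The median log2 difference of that stretch was 0.59 in genes of at least 5 CPM, and the part of position was not tested.

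Other matrix genes, proteases and integrins moved in both directions. Of 31 tested matricellular, proteoglycan and elastic-fibre genes 5 were over 2-fold higher in clone 2 and 4 in clone 1 (29.0% in all, against 8.52% of all tested genes). Ccn2, a matricellular protein and a target of YAP, was 40.4 ± 4.36 CPM in clone 1 against 193 ± 15.7 CPM in clone 2, with 683 CPM in the control, and Tnc, tenascin C, was 0.0650 ± 0.0303 CPM in clone 1 against 1.43 ± 0.214 CPM in clone 2. Vcan had 444, 395 and 373 CPM in clone 1 and 108, 99.4 and 106 CPM in clone 2. Has2, a hyaluronan synthase, was 9.87 ± 1.51 CPM and 2.73 ± 0.181 CPM, and Mgp, matrix Gla protein, 343 ± 21.7 CPM and 117 ± 2.32 CPM, so these 3 were over 2-fold higher in clone 1. Of 29 tested proteases and inhibitors, 8 were over 2-fold higher in clone 2 and 2 in clone 1 (34.5% in all). Among them Serpine2, an inhibitor of thrombin and plasminogen activators, had 2 counts in clone 1 and 4.14 ± 0.487 CPM in clone 2, and Adamts1, a protease of proteoglycans, 23.2 ± 0.775 CPM and 69.8 ± 5.07 CPM. Mmp14, a membrane-bound collagenase, was 74.3 ± 3.06 CPM in clone 1 against 26.3 ± 0.879 CPM in clone 2. Of 17 tested integrin subunits 2 were over 2-fold higher in clone 1, Itgb8 and Itga7, and none in clone 2 (11.8%, near the 8.52% of all tested genes). At an adjusted p under 0.05, 4 were higher in clone 2 and 7 in clone 1 (against 30.1% and 27.5% of all tested genes).

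Inflammatory genes differed in both directions, some of them widely. Of 40 tested chemokines, cytokines and receptors, 11 differed by over 2-fold (27.5% against 8.52%), 8 higher in clone 2 and 3 higher in clone 1. Yet at an adjusted p under 0.05 the counts were 13 and 18 (against 30.1% and 27.5% of all tested genes) and the median was -0.30. Ccl2, which draws monocytes, had 39.7, 36.9 and 34.1 CPM in clone 1 and 154, 114 and 128 CPM in clone 2. All clone 2 libraries were above clone 1 (1.84 ± 0.12; adjusted p for over 2-fold = 4.14e-05, edgeR). Its neighbour and relative Ccl7 was 2.12 ± 0.111 CPM and 14.9 ± 1.37 CPM. Il33, an alarmin, was 1.48 ± 0.308 CPM and 16.4 ± 1.94 CPM. Il6 was 1.25 ± 0.375 CPM and 8.07 ± 2.57 CPM, with 0 CPM in the control, Il1a 0.0877 ± 0.0497 CPM and 3.34 ± 1.38 CPM, and Cxcl12 83.6 ± 4.91 CPM and 207 ± 6.24 CPM. On the side of clone 1, Cxcl5, which draws neutrophils, was 184 ± 20.8 CPM against 72.2 ± 13.2 CPM, and Il15, a growth factor of T and NK cells, 1.55 ± 0.223 CPM against 8 counts.

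Of 36 tested NF-kB, Toll-like receptor and acute-phase genes, 4 were over 2-fold higher in clone 2 and 2 in clone 1 (16.7% in all, against 8.52% of all tested genes). The 4 were Saa3, Nos2, Saa1 and Steap4, a metalloreductase that cytokines induce, which was 24.9 ± 1.35 CPM in clone 1 against 196 ± 24.1 CPM in clone 2. The 2 were Tnfaip2 and Tlr4, the receptor for endotoxin, at 21.2 ± 3.17 CPM in clone 1 against 7.94 ± 1.32 CPM in clone 2. Complement and coagulation genes, 15 tested, had 3 over 2-fold apart in each direction (40% in all). C4b, a complement component, was 4.38 ± 0.514 CPM in clone 1 against 0.489 ± 0.174 CPM in clone 2. Cd59a, which blocks the membrane attack complex, was 0.0563 ± 0.0280 CPM in clone 1 against 11.4 ± 0.102 CPM in clone 2. Interferon-stimulated genes had a median of -0.36 over 33 members above the floor. At an adjusted p under 0.05, 15 of 34 tested were higher in clone 1 and 8 in clone 2 (against 27.5% and 30.1% of all tested genes). Over 2-fold apart were 3 (8.82%, near the 8.52% of all tested genes), Oas2 and Zbp1 higher in clone 1, and Oas1a higher in clone 2 (6.31 ± 0.347 CPM against 1.89 ± 0.105 CPM). The Zbp1 call, at adjusted p = 0.0465 (edgeR), was lost in DESeq2 (adjusted p = 0.238) and when any of 5 single libraries was left out. Of 21 tested antigen presentation genes, H2-T22, Nlrc5 and Ciita, the latter pair being transactivators of MHC class I and class II genes, were over 2-fold higher in clone 2 and Erap1, a peptidase that trims antigens, in clone 1. Nlrc5 lost its call without clone 2 replicate 2 (1.41).

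In the pathway of the line's oncogene, 0 of 13 tested ERBB receptors and ligands differed by over 2-fold, where 8.52% of all tested genes did. At an adjusted p under 0.05, 4 were higher in clone 2 and 3 in clone 1 (against 30.1% and 27.5% of all tested genes). Erbb2 (whether reads of the Neu transgene were counted under it was not tested) was 1034 ± 29.2 CPM in clone 1 against 1499.7 ± 75.6 CPM in clone 2 (0.54 ± 0.07), with 554 CPM in the control. Egfr was 24.4 ± 0.224 CPM and 11.2 ± 1.43 CPM (-1.12 ± 0.09; adjusted p for over 2-fold = 0.279, edgeR). Of 28 tested MAPK feedback and immediate-early genes, 13 were higher in clone 2 and 10 in clone 1 at an adjusted p under 0.05 (against 30.1% and 27.5% of all tested genes). Over 2-fold apart were 2 (7.14%, near the 8.52% of all tested genes), both higher in clone 1: Egr2, an immediate-early factor, at 25.002 ± 1.83 CPM and 9.25 ± 1.60 CPM, and Etv1 at 1.07 ± 0.176 CPM against 5 counts. Of the listed Dusp phosphatases, which switch MAP kinases off, Dusp4, Dusp5, Dusp6, Dusp7 and Dusp10 were higher in clone 2 by 0.55 to 1.03, and Dusp1 was higher in clone 1 (-0.82). Etv4 and Etv5, factors that ERK signalling induces, were higher in clone 2 (0.81 and 1.12), unlike Etv1. Egr1, Egr3, Junb, Jund, Fosl2 and Ier2 were higher in clone 1, and Fos, Fosb and Fosl1 in clone 2.

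Of 22 other receptor tyrosine kinases tested, 2 were over 2-fold higher in clone 2 and 4 in clone 1 (27.3% in all, against 8.52%). Kdr, the VEGF receptor of endothelium, had 15.3, 17.2 and 16.1 CPM in clone 1 and 0.384, 0.583 and 0.485 CPM in clone 2, far below (-5.07 ± 0.18; adjusted p for over 2-fold = 9.42e-09, edgeR). Ddr2, a collagen receptor, was 39.98 ± 3.65 CPM and 11.4 ± 1.38 CPM, and Flt1 and Fgfr3 were higher in clone 1 too. Ntrk3, a neurotrophin receptor, was 3.76 ± 0.447 CPM in clone 1 against 16.7 ± 0.432 CPM in clone 2, and Fgfr2 5.26 ± 0.374 CPM and 14.04 ± 1.63 CPM. Of 21 tested growth factor genes 2 were over 2-fold higher in clone 1, Igf2 and the scarce Igfbp5, and 0 in clone 2 (9.52%, near the 8.52% of all tested genes).

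Among developmental pathways, 5 of 37 tested TGF-beta and BMP genes (13.5% against 8.52%) were over 2-fold higher in clone 1 and 0 in clone 2. At an adjusted p under 0.05, 16 were higher in clone 1 and 9 in clone 2 (against 27.5% and 30.1% of all tested genes). Among the latter were the ligands Tgfb1, Tgfb2 and Tgfb3 (0.27 to 0.75), and the list's median was -0.14. The 5 were Bmp7, the BMP antagonists Nog and Fst, and the latent TGF-beta binding proteins Ltbp2 and Ltbp4. Nog, noggin, was 3.31 ± 0.0838 CPM in clone 1 against 6 counts in clone 2, 131-fold higher (95% counting interval 59.8 to 357), and Ltbp4 was 11.4 ± 1.09 CPM and 1.67 ± 0.297 CPM. In the Wnt list 2 of 27 tested were over 2-fold higher in clone 2 and 4 in clone 1 (22.2% in all). Rspo3, a secreted amplifier of Wnt signalling, had 15.8, 14.9 and 14.04 CPM in clone 1 and 0.384, 0.199 and 0.0255 CPM in clone 2, with 0.253 CPM in the control, so that clone 1 alone expressed it above 1 CPM. Notum, a Wnt inactivator, was 160.4 ± 6.16 CPM and 56.5 ± 1.94 CPM, and the receptor Fzd7 28.0 ± 1.00 CPM and 8.98 ± 0.294 CPM. In the Notch list of 19 tested genes, 2 were over 2-fold higher in each clone (21.1% in all). Notch1 was 93.6 ± 6.29 CPM in clone 1 against 28.6 ± 2.56 CPM in clone 2, and Notch4 9.19 ± 1.14 CPM and 25.3 ± 1.38 CPM. Hedgehog co-receptors differed in opposite directions: Gas1 was 155 ± 5.30 CPM and 30.0 ± 0.323 CPM, and Boc 2.07 ± 0.241 CPM and 10.7 ± 1.07 CPM, with no other of the 11 tested genes over 2-fold (18.2% in all, against 8.52% of all tested genes). Of 22 YAP and TAZ pathway genes Ccn2 alone was over 2-fold (4.55%, against 8.52% of all tested genes), while 10 passed against 0 in clone 2 and 9 in clone 1 (against 30.1% and 27.5% of all tested genes).

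Cell cycle genes differed by small amounts, and p53 targets in both directions. Of 44 tested cell cycle genes, 13 were higher in clone 2 and 14 in clone 1 at an adjusted p under 0.05, near the 30.1% and 27.5% of all tested genes. The median was 0.05, and 1 was over 2-fold (2.27%, against 8.52% of all tested genes): Ccnd2, cyclin D2, at 1.27 ± 0.120 CPM in clone 2 against 0 counts in clone 1, at least 89.7-fold higher. Mki67, the proliferation antigen Ki-67, had 569, 383 and 398 CPM in clone 1 and 304, 208 and 247 CPM in clone 2. Replicate 1 was the highest library in each clone, and the clones did not overlap (-0.83 ± 0.19; adjusted p = 0.00285, edgeR). Cdkn1a, p21, which halts the cycle under p53, had 94.9, 94.0 and 97.0 CPM in clone 1 and 257, 252 and 251 CPM in clone 2, wholly above (1.41 ± 0.05; adjusted p for over 2-fold = 2.27e-05, edgeR), with 189 CPM in the control. Pmaip1, a p53-induced killer of the BCL2 family, was 0.250 ± 0.0458 CPM and 6.76 ± 1.53 CPM. Of 22 tested p53 targets and CDK inhibitors 11 were higher in clone 2 and 5 in clone 1 at an adjusted p under 0.05 (against 30.1% and 27.5% of all tested genes), with Cdkn1a and Pmaip1 the pair over 2-fold (9.09%, near the 8.52% of all tested genes). The other 9 higher in clone 2, Ccng1, Zmat3, Phlda3, Sesn2, Btg2, Gtse1, Mdm2, Aen and Bax, differed by 0.35 to 0.96. Higher in clone 1 were Sesn1, Plk2, Cdkn1b, Fas and Cdkn2c, at -0.55 to -0.18. Trp53 itself was 224 ± 13.1 CPM and 224 ± 1.91 CPM (adjusted p = 0.995, edgeR), and Cdkn2a had 0 counts in all 9 libraries.

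Each metabolic and stress list held from 2 to 6 members over 2-fold apart, from 8% to 16.2% of its tested genes, against 8.52% of all tested genes. Of 37 glycolysis and hypoxia genes 5 were over 2-fold higher in clone 2 and 1 in clone 1. Epas1, HIF-2alpha, had 4.50, 5.12 and 5.34 CPM in clone 2 and 0 counts in clone 1, at least 352-fold higher, with 4.55 CPM in the control. Car12, a carbonic anhydrase, was 0.590 ± 0.103 CPM and 6.42 ± 0.439 CPM, and P4ha2, a collagen prolyl hydroxylase, 13.6 ± 0.467 CPM and 38.1 ± 1.86 CPM. The Aldoc call was lost in DESeq2 (adjusted p = 0.184) and in the 6 clone libraries alone. In the list of cholesterol and fatty acid synthesis, Fads1 was among the genes over 2-fold higher in clone 2, as was Lpl, a lipase counted in that list. Hmgcs1, the first committed enzyme of the mevalonate pathway, had 68.7, 60.3 and 61.1 CPM in clone 1 and 27.9, 21.4 and 25.3 CPM in clone 2, over 2-fold lower there (-1.35 ± 0.11). Idi1, further along that pathway, was 39.8 ± 6.15 CPM in clone 1 against 19.4 ± 3.34 CPM in clone 2 (-1.03 ± 0.16) and did not pass as over 2-fold. Hmgcs1 and Idi1 both lie on chromosome 13, whose median difference is given below. Of 15 heat shock genes Cryab and Hspb1 (57.5 ± 2.85 CPM and 150.1 ± 9.22 CPM) were over 2-fold higher in clone 2. Among unfolded protein and integrated stress genes Atf3, a stress-induced factor, was 2.91 ± 0.339 CPM and 16.7 ± 1.03 CPM, and Cth was higher in clone 2 with a call that DESeq2 did not make (adjusted p = 0.126). Among redox genes Aldh1a1, a retinaldehyde dehydrogenase, was 148 ± 1.78 CPM in clone 1 against 23.5 ± 0.622 CPM in clone 2, and Gstm1 was higher in clone 1 too. Selenop, the plasma selenium carrier, was 304 ± 14.4 CPM and 736 ± 42.6 CPM, a call lost when any of 4 single clone libraries was left out.

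Patterning and guidance genes differed in both directions, many of them at low levels. Of 40 tested lineage transcription factors 15% differed by over 2-fold, against 8.52% of all tested genes. Gata4 and Lhx2 were over 2-fold higher in clone 2 and 4 in clone 1, of which Foxf1, a factor of visceral mesenchyme, was 11.6 ± 1.34 CPM and 4.54 ± 0.428 CPM. Of 10 tested Hox genes, which set position along the body axis, 6 were higher in clone 2 and 1 in clone 1 at an adjusted p under 0.05 (against 30.1% and 27.5% of all tested genes), with a median of 0.94 over the 9 above the floor. Most were scarce; Hoxb4, the most abundant, was 6.62 ± 0.484 CPM in clone 1 against 9.22 ± 0.878 CPM in clone 2 (0.48), and the over 2-fold calls were Hoxb6 in clone 2 (9 counts in clone 1 and 72 in clone 2) and Hoxb13 in clone 1 (70 and 2). Of 42 tested ephrins, semaphorins, netrins and receptors, 3 were over 2-fold higher in clone 2 and 7 in clone 1 (23.8% in all). Sema3a, a repellent for axons and vessels, had 73.8, 56.5 and 53.8 CPM in clone 1 and 6.29, 4.36 and 4.93 CPM in clone 2, far apart (-3.56 ± 0.16; adjusted p for over 2-fold = 8.13e-08, edgeR). Efnb2, a ligand of Eph receptors, was 78.6 ± 1.45 CPM and 209 ± 7.34 CPM. Of 10 tested neural crest genes, 3 (30%) were over 2-fold higher in clone 1: Tfap2a (65.5 ± 2.35 CPM and 26.9 ± 1.48 CPM), Egr2 and S100b. Of 14 tested imprinted genes Igf2 alone was over 2-fold (7.14%, near the 8.52% of all tested genes). Of 25 listed germline genes, which DNA methylation keeps silent in other tissues, only 5 could be tested. Of these, Rhox5 and Tex101 were over 2-fold higher in clone 1 (40%, against 8.52% of all tested genes). Of 22 tested genes of DNA methylation and Polycomb repression, the scarce Dnmt3b alone was over 2-fold, higher in clone 1 (4.55%, under that share). Xist, which coats the silent X chromosome of females, was 800.1 ± 168 CPM and 532 ± 96.8 CPM (-0.59 ± 0.16), higher in clone 1 with its regulators Jpx and Ftx.

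**Figure D3:**
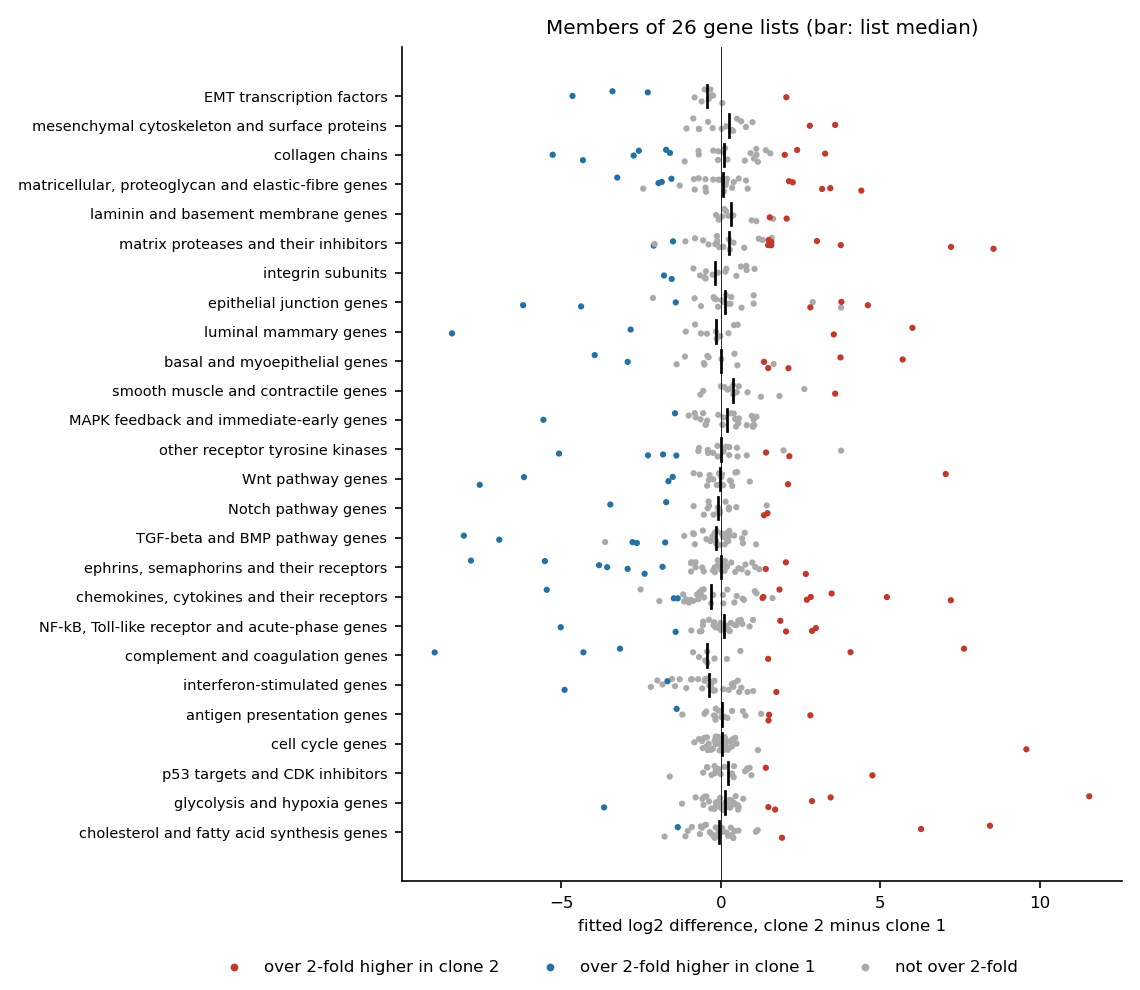
Fitted log2 difference, clone 2 minus clone 1, of each tested member of 26 gene lists above the floor of 3 counts, with red for over 2-fold higher in clone 2, blue for over 2-fold higher in clone 1, grey for neither, and a black bar at the list's median. Most members lie near 0 and the medians stay between -0.44 (EMT factors) and 0.39 (contractile genes), while single members of many lists lie far to either side; fitted values of genes at 0 counts in 1 clone are no bounds.

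Markers of other cell types gave no complete signature in either clone. The summed level of 11 fibroblast markers was 206 to 211 CPM in clone 1, 140.4 to 155 CPM in clone 2 and 10.2 to 12.3 CPM in the control, nearly all of it Pdgfra and Fbln1, while Lum, Thy1 and Dpt had 0 counts in both clones and Dcn had 30 and 0. That of 7 pericyte markers was 70.2 to 75.7 CPM in clone 1 and 30.3 to 35.7 CPM in clone 2, most of it Abcc9 and Pdgfrb in clone 1 and Pdgfrb in clone 2, with Rgs5 near 0. That of 8 endothelial markers was 15.9 to 18.1 CPM in clone 1 and 0.816 to 1.09 CPM in clone 2. Kdr made up most of it, with Tie1 and Cldn5 at 0 in both clones and 6 counts of Pecam1 in each. That of 11 immune markers was 0.499 to 0.698 CPM in clone 1 and 5.89 to 7.68 CPM in clone 2. Lyz2, lysozyme, made up most of it at 6.36 ± 0.954 CPM in clone 2, with Ptprc, Cd3e, Cd3d and C1qa at 0 in both clones. Of 8 muscle markers Myod1 and Myog had 0 counts in both clones, and of 6 adipocyte markers Adipoq, Cidec and Retn, although Fabp4 was higher in clone 2. Of the 3 muscle markers tested, Des and Acta1 were higher in clone 2, while Myf5, a myogenic factor, had 67 counts in clone 1 and 0 in clone 2, at least 24.99-fold higher in clone 1.

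The differences were not spread evenly over the genome. The median log2 difference over the tested genes of a chromosome lay between -0.12 and 0.02 for 14 of 20 chromosomes. It was -0.62 on chromosome 13, where 375 of 550 tested genes (68.2%) were higher in clone 1 at an adjusted p under 0.05 and 36 (6.55%) higher in clone 2, against 27.5% and 30.1% of all tested genes. It was -0.27 on chromosome 8, and 0.33 on chromosome 1, 0.32 on chromosome 6, 0.33 on chromosome 9 and 0.24 on chromosome 16. In single libraries, as the median of log2(CPM + 0.5) minus the mean of clone 1, chromosome 13 stood at -0.45, -0.55 and -0.53 in clone 2 and at 0.03, -0.02 and -0.02 in clone 1. The libraries of the clones were apart by far more than their spread. Against the control the median of chromosome 13 was 0.17 in clone 1 and -0.48 in clone 2, and that of chromosome 1 was -0.29 and 0.05, so the clone that lay further from the control was not the same for the 2 chromosomes. Some other chromosomes lay off the control by similar amounts in both clones, such as chromosome 14 (0.61 in clone 1 and 0.48 in clone 2) and chromosome 4 (-0.49 and -0.53).

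Along chromosomes the shift was broad, in genes of at least 5 CPM in windows of 20 Mb. Chromosome 13 lay at -0.58 to -0.82 in each window from 0 to 120 Mb, and the last window held 1 gene. Chromosome 8 changed sign within its length: the windows from 0 to 40 Mb lay at 0.59 and 0.39, and those from 40 Mb on at -0.34 to -0.48. The first 20 Mb of chromosome 6 lay at -0.14, with the later windows at 0.19 to 0.44. Several genes named above lie on chromosome 13, among them Dsp, Syk, Sox4, Gas1, Vcan, Emb, Tfap2a, Erap1, Epdr1 and Gcnt4, each lower in clone 2 by more than the chromosome's median. Ocln, on the same chromosome, was higher in clone 2 all the same. Tnnt2, Prrx1, Col6a3 and Lamb3 on chromosome 1 and Cryab and Mcam on chromosome 9 were higher in clone 2 by more than the chromosome's median. Rab3gap2, Ddr2 and Col5a2, on chromosome 1, were higher in clone 1. The medians of the laminin list (0.31) and the contractile list (0.39) were of the size of those of chromosomes 1 and 9 (0.33 each). The part of position in them was not tested. Of the 651 and 535 genes called over 2-fold higher in clone 2 and clone 1, 636 and 515 stayed at 2-fold or more once the median of its chromosome was taken from each. The test was not run again, so this count could lose genes but not gain them. It asks only whether the fitted difference stays at 2-fold, a lower bar than the calls had passed. On chromosome 8 the median of -0.27 was taken from the windows at 0.59 and 0.39 too, which moved genes there further toward clone 2. DNA copy number was not measured, and its part in these medians was not tested.

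**Figure D4:**
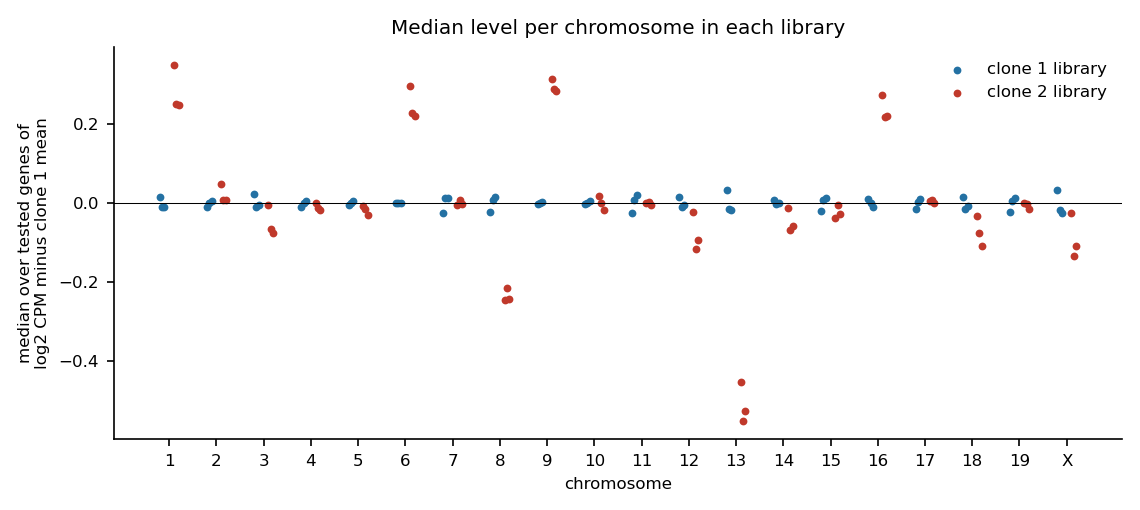
Median over the tested genes of each chromosome (x axis) of log2(CPM + 0.5) minus the clone 1 mean (y axis), 1 point per library, clone 1 in blue and clone 2 in red. The clone 2 points lie below clone 1 on chromosomes 8 and 13 and above it on chromosomes 1, 6, 9 and 16, with the 3 libraries of a clone close together.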

How the data were processed

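Deposited values are whole-number gene counts, not normalized, 1 column per library; the submitters' processing notes name fastp, Subread and DESeq2 and the builds mm10 and GRCm38, without versions or roles. Per the labels' protocols, the RNA was polyA-enriched and the libraries stranded. The annotation and strand setting behind the deposited counts were not given in the sources used here; overlapping and antisense genes can share counts. The labels do not say at which step the technical replicates parted.

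Gene names and positions came from GENCODE vM21 and the name table; of 24594 genes 24570 had a symbol, and those without one had 0.202% of a library's counts at most. In R 4.3.3, edgeR 4.0.16 kept 13928 genes (filterByExpr, minimum count 10), scaled them by TMM and fitted 1 quasi-likelihood model to all 9 libraries. The contrast was clone 2 minus clone 1, tested against 0 and, with glmTreat, against a log2 fold change of 1, each with Benjamini-Hochberg adjustment over all tested genes at 0.05. The common coefficient of variation was 0.0878. Standard errors are the log2 difference over the square root of F. A fold against 0 counts uses a floor of 3 counts over the clone's libraries, and one against 1 to 9 counts carries a 95% counting interval; both cover counting error alone, as PCR copies of a molecule cannot be recognised without identifiers. List medians leave out members at or under the floor in both clones.

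The comparison, the 48 lists and the named genes were chosen with earlier results of these data known. Named were Sox10; the 10 genes per direction with the largest over-2-fold differences and at least 20 CPM; the 8 per direction with at least 200 CPM; up to 4 over-2-fold members per list with at least 1 CPM; and 26 fixed genes. A few genes of the lists are counted but not reported here by name. Other genes named to show a list or chromosome were chosen after their values were seen. Same-numbered replicates of the clones deviated together (correlations 0.671, 0.362 and 0.261, each over the 0.1 set for pairing). Differently numbered ones ran from -0.603 to 0.483, the highest between clone 1 replicate 3 and clone 2 replicate 2, so the numbers part replicate 1 from the rest more than 2 from 3. Any pairing is thus read from the data alone. It entered only the replicate block, an alternative run, and the main fit held no replicate term. Alternatives were RLE and upper-quartile scaling, other filters, DESeq2 1.42.0, the clone libraries alone, the replicate block and leaving out each library. In simulated counts of 12933 genes, some with known changes, the 2-fold test called 49 of 50 genes with a 4-fold change, 50 of 50 with 8-fold and 0 of 50 with 2-fold. Of the unchanged genes, 15 passed against 0 and 0 passed as over 2-fold. Changes were put only into genes with an expected mean of at least 50 counts per library, and no replicate effect was simulated. These rates therefore do not cover scarcer genes.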

Additional observations from a re-analysis of the deposited data

Results flagged for a closer look

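For 19 of the genes named here the clones lay over 2-fold from the control in opposite directions (edgeR). These genes were named for their difference between the clones, so the test of that difference (clone 2 minus clone 1) is no further support. The same count was not made over all tested genes. Higher in clone 2 than in the control and lower in clone 1 were Fxyd6 (14.72), Sdc3 (14.59), Tdrp (13.22), Pla2r1 (12.93), Cers6 (12.76), Irak3 (12.71), Gata4 (12.69), Gpc4 (12.56), Dennd2a (11.72), Syt17 (11.7), Ccnd2 (9.57), Lpl (8.43), Alpl (8.08) and Cd59a (7.62), with fitted log2 differences in parentheses. Higher in clone 1 than in the control and lower in clone 2 were Pcdh9 (-13.04), Epdr1 (-12.45), Fat2 (-6.67), Efna2 (-5.51) and Tnfrsf21 (-3.39). Fxyd6, Sdc3, Tdrp, Pla2r1, Cers6, Irak3, Gata4, Dennd2a, Syt17 and Ccnd2 had 0 counts in clone 1, and Pcdh9 and Epdr1 had 0 counts in clone 2, so their fitted differences (clone 2 minus clone 1) are no bounds. Some were scarce in the control too: over its 3 libraries Ccnd2 had 10 counts, Pcdh9 and Epdr1 18 each, and Irak3 41. For such genes the fall below the control rests on few counts. Both clones are set against the same 3 control libraries, and each is 1 clone.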

How the results depend on the processing

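Of 142 tested named genes, 133 kept their direction and call in every alternative run; the other 9 are Snai2, Krt8, Lamc3, Zbp1, Nlrc5, Aldoc, Cth, Selenop and Epcam, and none reversed. The Epcam call, on 7 counts against 0, was lost in DESeq2 (adjusted p = 0.34), without replicate 1 of every group and without 8 of 9 single libraries. Where only genes with at least 5 CPM in a clone were tested, 292 genes were over 2-fold higher in clone 2 and 233 in clone 1, since fewer genes were tested; Selenop was then not called (adjusted p = 0.0601). With the replicate block the counts over 2-fold were 696 and 602, sharing 1172 of the 1186 calls, and it changed no named call but that of Snai2. DESeq2 gave 544 and 462, and leaving out single libraries 573 to 651 and 486 to 570. Alternatives chosen after seeing the data were the fit without replicate 1 of every group, with 665 and 577, and the chromosome-centred counts of 636 and 515. The latter only filter the main calls, without a new test. Genes detected in 1 clone only numbered 34 for clone 2 and 23 for clone 1 with a minimum of 1 CPM, and 17 and 14 where up to 10 counts were allowed in the other clone. The chromosome 16 median was 0.27 in genes of at least 5 CPM. Leaving out 1 clone library, the medians ranged from 0.27 to 0.32 on chromosome 6, -0.32 to -0.26 on chromosome 8, 0.29 to 0.34 on chromosome 9 and 0.24 to 0.26 on chromosome 16. Depth limits what can be said of genes under about 10 counts in a clone.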
